A study of Mus musculus with 12 samples.

Results

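The data compare 2 endothelial populations sorted from the ventricles of mouse embryos late in gestation, the coronary vascular endothelium and the endocardium, with 2 libraries of each. These 4 RNA-seq libraries were taken from a series of 12 by their labels for stage (E17) and cell source, and every gene that passed a filter on low counts was tested, which was 15171 of the 41214 genes in the table. All 4 libraries came from embryos that carried R26 (tom/+) together with Nes-CreER(Tg/0) and Nes-Gfp(Tg/0), exposed to 0.1 ug of tamoxifen at E15.5 and collected at E17.5. The transgenes express green fluorescent protein (GFP) and a tamoxifen-inducible Cre under nestin regulatory sequence, and the R26 allele turns on the red protein Tomato in cells where Cre has acted. Atria and the aortic region had been removed, and the hearts had been chosen for green and red fluorescence.

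Live cells were sorted that lacked Ter119 (a red cell protein) and CD45 (a leukocyte protein) and carried CD31, which Pecam1 encodes. Endocardial cells were then taken by GFP. For coronary cells the study describes a pair of gates, both of GFP+ cells with little surface endomucin (Emcn), a Tomato+ gate enriched in arteries and capillaries and a Tomato- gate with low GFP enriched in veins. The labels do not say which of the gates gave the coronary libraries, nor whether the replicates came from separate litters or from pooled hearts, and the tests then rest on a spread among these libraries that may be technical. The 8 libraries of the earlier stage, E13 (E13.5 embryos labelled Nes-gfp (Tg/0), with neither the other alleles nor tamoxifen named), entered the model for the estimate of spread and are used for the comparison of stages at the end.

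The endocardium is the inner lining of the heart chambers. It instructs the neighbouring muscle through secreted ligands, contributes cells to valves and coronary vessels, and is bathed directly in chamber blood. The coronary endothelium forms the arteries, capillaries and veins that feed the muscle wall, and its capillary cells take up fatty acids and other fuels for the working myocardium.

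Reference promoters of genes that stood at the ends of the comparison are shown here because the CpG content of the sequence before the start site differed between genes with large differences and all matched genes. Each is the run of 250 bases just before the RefSeq start (build GRCm38.p6), 5′ to 3′ on the strand of the gene, and capitals mark each CG. Npr3 and Mal were high in the endocardium, Cldn5 and Car4 in the coronary endothelium, and Mki67, a proliferation gene, stands for the mitosis list, whose members differed least among themselves (log2 fold changes from 0.92 to 1.88).
Npr3: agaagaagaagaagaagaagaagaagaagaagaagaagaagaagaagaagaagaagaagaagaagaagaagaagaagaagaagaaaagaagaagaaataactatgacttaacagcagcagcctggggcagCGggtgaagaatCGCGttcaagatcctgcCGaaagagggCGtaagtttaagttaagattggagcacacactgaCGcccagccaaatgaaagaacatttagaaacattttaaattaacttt
Mal: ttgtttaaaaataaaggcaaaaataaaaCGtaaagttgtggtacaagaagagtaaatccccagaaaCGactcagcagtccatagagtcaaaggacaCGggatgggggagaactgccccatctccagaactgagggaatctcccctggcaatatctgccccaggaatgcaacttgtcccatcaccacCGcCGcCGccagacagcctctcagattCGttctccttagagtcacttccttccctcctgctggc
Cldn5: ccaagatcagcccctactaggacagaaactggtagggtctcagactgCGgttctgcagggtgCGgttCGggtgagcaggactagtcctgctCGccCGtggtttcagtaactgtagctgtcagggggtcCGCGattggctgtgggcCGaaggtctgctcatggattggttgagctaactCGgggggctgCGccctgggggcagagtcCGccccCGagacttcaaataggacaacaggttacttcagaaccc
Car4: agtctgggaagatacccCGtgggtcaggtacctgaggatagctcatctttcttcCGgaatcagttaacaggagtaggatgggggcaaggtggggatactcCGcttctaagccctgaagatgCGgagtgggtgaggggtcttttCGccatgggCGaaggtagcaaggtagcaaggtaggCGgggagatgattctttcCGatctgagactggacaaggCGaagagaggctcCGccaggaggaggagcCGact
Mki67: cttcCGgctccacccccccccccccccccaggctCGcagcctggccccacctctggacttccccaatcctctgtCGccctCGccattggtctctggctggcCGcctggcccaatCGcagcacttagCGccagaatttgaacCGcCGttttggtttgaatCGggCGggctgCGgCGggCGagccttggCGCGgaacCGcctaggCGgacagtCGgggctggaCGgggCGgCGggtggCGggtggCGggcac
The Npr3 window lies at chr15:11907372-11907621 on the minus strand and holds 6 CG pairs, a count that depends on the C and G content of the window. The Mal window is chr2:127656696-127656945 (minus) with 7, the Cldn5 window chr16:18776597-18776846 (plus) with 12, the Car4 window chr11:84957504-84957753 (plus) with 11 and the Mki67 window chr7:135716380-135716629 (minus) with 24. Promoters of 11133 tested genes were in the RefSeq table, and their median ratio of observed to expected CG was 0.72. Of the printed windows Npr3 and Mki67 both had a ratio of 0.75, above that median, Car4 had 0.61, Cldn5 0.55 and Mal 0.46, so the leading genes did not all have low ratios. Among genes called at least 8-fold higher in the coronary libraries the median was 0.47 (302 promoters), and among those at least 8-fold lower it was 0.42 (321 promoters). A ratio under 0.5 was found in 26.0% of all matched promoters, against 53.6% of the former and 56.1% of the latter. The 25 promoters of the mitosis list had a median of 0.8, the 13 of the heart capillary list 0.38 and the 9 of the endocardial list 0.74. The motif AGATAA, searched on both strands as a GATA factor motif, occurred in 5.8% of all matched windows, 6.0% of the strongly coronary set and 9.7% of the strongly endocardial set. For CAGGAAG, an Ets factor motif, the shares were 9.7%, 10.9% and 9.0%, and for TATAAA, the TATA box, 6.3%, 9.6% and 9.7%. None of the 3 motifs lay in any of the 5 printed windows. Plvap was not matched.

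The E17 libraries held 14973633 to 19168912 counts. The counts of the endocardial pair gave a chi-square of 10.2 per gene, and those of the coronary pair 10.7, so replicates differed beyond sampling noise. Levels below are CPM, counts scaled to the library total after TMM normalisation. Each gene is given as its 2 endocardial values (replicates 1 and 2) against its 2 coronary values, and the fold change is the fitted log2 difference, coronary minus endocardial, ± its standard error. CPM is not scaled to gene length, so levels are compared between libraries and not between genes. A gene is called higher or lower where edgeR's quasi-likelihood test gave a Benjamini-Hochberg adjusted p under 0.05.

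The genes of the sort gates are given as a description only. Pecam1 stood at 1488 and 1513 CPM against 1800.5 and 2141 CPM. Nes, the gene whose regulatory sequence drives the GFP, stood at 146 and 156 CPM against 603 and 663 CPM, and Emcn, whose protein was selected to be low in the coronary gates, at 875 and 1108 CPM against 211 and 230.3 CPM. The CD45 gene, Ptprc, did not pass the count filter. The pair of endocardial markers was high in the endocardial libraries. Npr3, the natriuretic peptide clearance receptor (ENSMUSG00000022206, GRCm38 chr15:11839896-11907287), stood at 2223 and 2406 CPM against 11.5 and 11.6 CPM, a log2 fold change of -7.65 ± 0.26. Plvap, which builds the diaphragms of fenestrae and caveolae (ENSMUSG00000034845, chr8:71497765-71511752), stood at 1456 and 1608 CPM against 20 and 16.3 CPM (-6.4 ± 0.19). The coronary markers were high in the coronary libraries. Cldn5, the main claudin of endothelial tight junctions (ENSMUSG00000041378, chr16:18776847-18778262), stood at 10.8 and 7.84 CPM against 414 and 460.2 CPM (5.54 ± 0.30), and Car4, a membrane-bound carbonic anhydrase of capillaries (ENSMUSG00000000805, chr11:84957786-84966044), at 0.0546 and 0.13 CPM against 24.2 and 36.5 CPM (8.31 ± 0.47). The groups did not overlap for any of the 4 markers. Absence of overlap was found for most genes in these libraries, so it says little alone. The 4 markers were chosen with earlier results of these data known, so their differences describe the libraries and do not test the labels.

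By edgeR at an adjusted p under 0.05, 7977 of 15171 genes differed between the populations (52.6%), of which 4022 were higher in the coronary libraries (26.5%) and 3955 lower (26.1%). At least 2-fold differences were called for 1587 genes higher (10.5%) and 1737 lower (11.4%). At least 8-fold differences were called for 429 higher and 460 lower, and at least 32-fold differences for 148 and 146. The median log2 fold change over all genes tested was -0.01. These shares are the background for every list below.

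**Figure D1:**
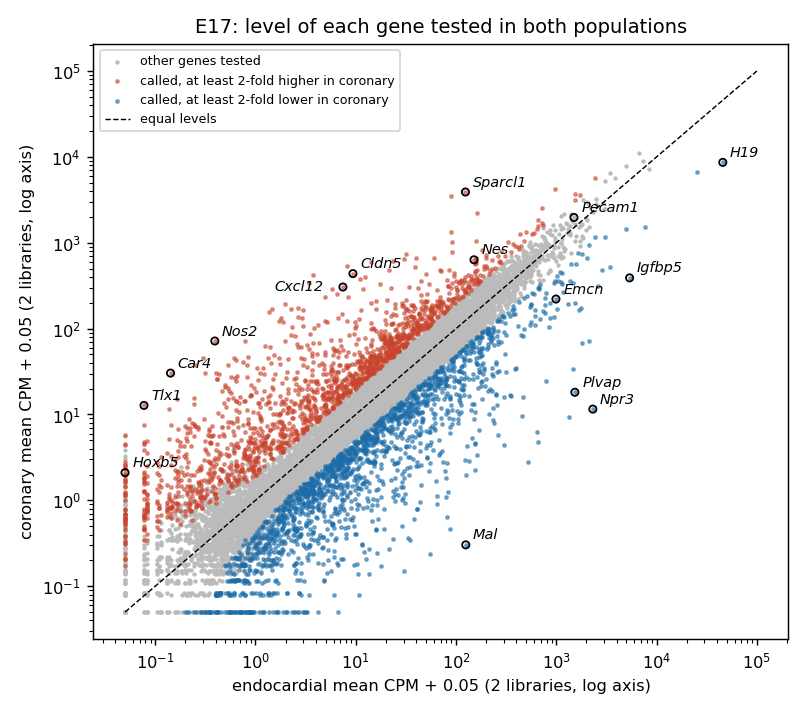
Mean level of each gene tested in the 2 endocardial (x) and the 2 coronary (y) libraries at E17, as CPM + 0.05 on log axes; coloured points are genes called at an adjusted p under 0.05 and at least 2-fold, and circles mark genes named in the text. Npr3, Plvap and Mal sit far below the dashed line of equal levels, and Car4, Nos2 and Cldn5 far above it, while Pecam1 lies near it.

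The genes with the largest excess in the endocardium, at 10 CPM or more there, covered membrane sorting, adhesion, plasma proteins and matrix, and 11 of the first 12 are given. Mal, a proteolipid of apical membrane sorting (ENSMUSG00000027375, chr2:127633226-127656695), stood at 106 and 144 CPM against 0.206 and 0.299 CPM, a log2 fold change of -8.89 ± 0.34. Nrxn3, a neurexin known from synapses, stood at 30 and 30 CPM against 0.137 and 0.0599 CPM (-8.19 ± 0.42), and Slc5a7, the high-affinity choline transporter, at 40.6 and 70.3 CPM against 0.137 and 0.24 CPM (-8.13 ± 0.43). These 3 genes were close to absent from the coronary libraries, with 8, 3 and 6 counts in the pair together. Dsg2, a desmosomal cadherin, stood at 84.9 and 90.2 CPM against 0.411 and 0.419 CPM (-7.7 ± 0.38). Among secreted products, the matricellular protein Smoc1 stood at 497 and 536 CPM against 3.57 and 1.92 CPM (-7.58 ± 0.35) and the cartilage matrix protein Comp at 78.7 and 84.4 CPM against 0.686 and 0.479 CPM (-7.13 ± 0.41). Adgrg6, an adhesion receptor needed for heart and myelin development, stood at 614 and 690.5 CPM against 5.49 and 4.01 CPM (-7.11 ± 0.40). Apoc1, Itih3, Myrip and Npr3 complete those given, with Apoc1 at 8.13 and 13 CPM against 0 and 0.0599 CPM, Itih3 at 15.2 and 11.9 CPM against 0 and 0.18 CPM and Myrip at 18.8 and 16.7 CPM against 0 and 0.24 CPM. By pooled counts the endocardial excess was 482-fold for Mal (exact 95% interval 244 to 1116, counting error only), 313-fold for Nrxn3 (107 to 1519.8) and 324-fold for Apoc1 (57.8 to 12846).

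The 12 genes with the largest excess in the coronary libraries, at 10 CPM or more there, included transcription factors, enzymes and receptors. Tlx1, a homeobox factor best known from spleen development (ENSMUSG00000025215, chr19:45150680-45156943), stood at 0.0546 and 0 CPM against 8.57 and 16.9 CPM (8.47 ± 0.80), and by pooled counts the ratio was 439 (exact 95% interval 78.4 to 17390.2), from 1 endocardial and 407 coronary counts. Dach1, a factor known for promoting coronary artery growth, stood at 1.31 and 1.3 CPM against 138 and 177 CPM (6.91 ± 0.36), and Tcf21, a factor of epicardial and fibroblast lineages, at 0.164 and 0.0648 CPM against 19.7 and 10.4 CPM (6.91 ± 0.76). Tcf21 also stands on the fibroblast marker list, whose level differed between the coronary replicates. Nos2, the inducible nitric oxide synthase, stood at 0.491 and 0.194 CPM against 74.2 and 69.2 CPM (7.63 ± 0.36), and Aqp7, a glycerol and water channel, at 0.273 and 0.13 CPM against 32.1 and 43.2 CPM (7.47 ± 0.57). Sema7a, a membrane-anchored semaphorin, stood at 3.22 and 4.15 CPM against 391 and 441 CPM (6.83 ± 0.34). S1pr3, a sphingosine-1-phosphate receptor, stood at 0.273 and 0.259 CPM against 37.6 and 23.8 CPM (6.81 ± 0.56), and Tnfrsf9, the costimulatory receptor 4-1BB, at 0.109 and 0.0648 CPM against 9.19 and 14.1 CPM (6.93 ± 0.69). Papln, a matrix glycoprotein, stood at 1.53 and 1.3 CPM against 142 and 194 CPM (6.88 ± 0.24), Depp1, a FOXO target, at 1.69 and 2.14 CPM against 169 and 219 CPM (6.67 ± 0.32) and Ssu2 at 0.109 and 0.389 CPM against 41.2 and 48.6 CPM (7.52 ± 0.53). The groups did not overlap for any of these genes, which was a condition for selecting them.

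**Figure D2:**
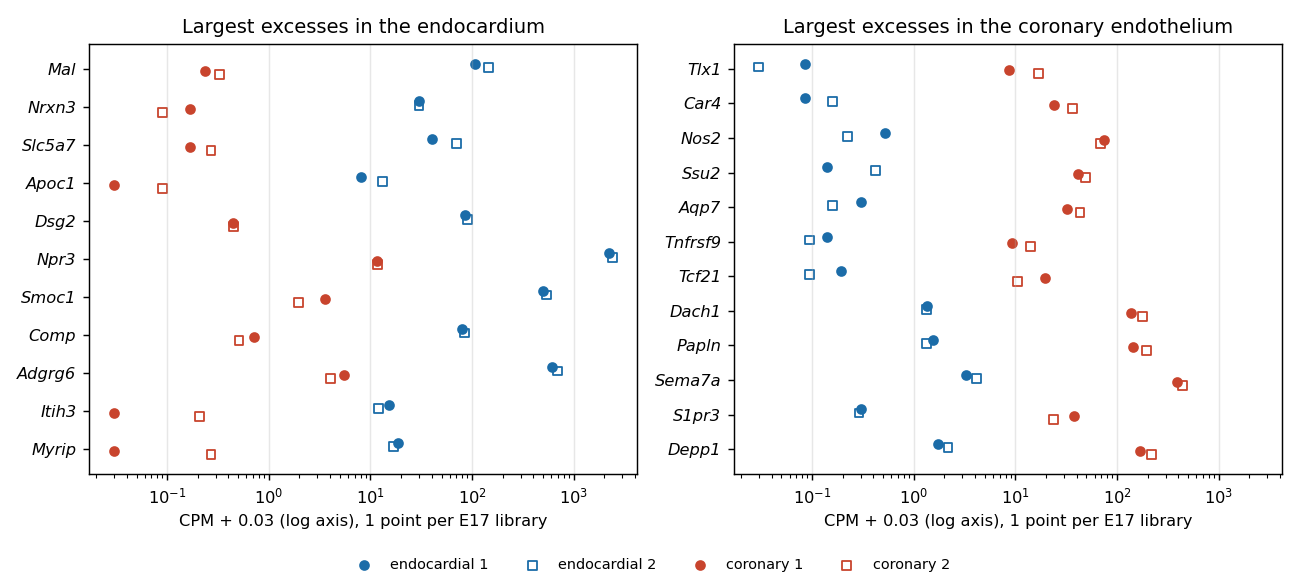
CPM + 0.03 (log axis) in each E17 library of the genes with the largest fold change in each direction at 10 CPM or more in the higher group, 11 endocardial and 12 coronary; blue, endocardial, and red, coronary, with circles for replicate 1 and squares for replicate 2. No overlap between the groups was a condition for selecting these genes, and replicates lie much closer to each other than to the other group.

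Transcription factors of the heart were lower in the coronary libraries more often than higher. Of 26 cardiac factors tested, 8 were called higher and 12 lower, with a median log2 fold change of -0.62. Hand2, a bHLH factor of endocardium and myocardium, stood at 217 and 208 CPM against 10 and 10 CPM (-4.41 ± 0.12), and Gata4 at 203 and 173 CPM against 36.1 and 29.7 CPM (-2.51 ± 0.13). Gata5, the GATA factor most tied to endocardium, stood at 30.8 and 18.8 CPM against 2.47 and 2.82 CPM (-3.23 ± 0.23). Within the GATA group Gata6 was also lower at 190.0 and 179 CPM against 41 and 39.1 CPM (-2.2 ± 0.23). Going the other way were the T-box repressors Tbx3, at 1.15 and 0.324 CPM against 64.1 and 78.4 CPM (6.53 ± 0.48), and Tbx2, at 0.709 and 0.259 CPM against 22.6 and 18.4 CPM (5.35 ± 0.45), together with Mef2c at 57.2 and 56.5 CPM against 184 and 188 CPM (1.71 ± 0.12). Zfpm2, Nkx2-5 and Myocd were not called. Of the endocardial identity list 14 of 16 genes were lower and 1 higher, with a median of -3.08. The exception was the T-box factor Tbx20, which stood at 25.4 and 18.2 CPM against 107 and 50.5 CPM (1.85 ± 0.38). Its level was lower in coronary replicate 2, as were those of fibroblast and mural markers, whose part was not tested. Hapln1, a hyaluronan link protein, was not called (46.2 and 27.2 CPM against 32.5 and 29 CPM).

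The homeobox list split by family. Of 41 tested members 21 were higher and 13 lower, with a median of 0.77, or 0.56 with genes at 0 counts in a group set to a bound of 3 counts. Meox2, a homeobox factor of heart capillary endothelium, stood at 2.07 and 3.18 CPM against 165 and 186 CPM (6.08 ± 0.33). Genes of the Hox clusters, singled out after their values were seen, were called higher in the coronary libraries in 15 of 16 cases (median 4.77), and 13 to 14 with any 1 E17 library left out. Their median was 5.94 without endocardial replicate 1 and 4.42 without endocardial replicate 2. Their levels were low in both populations. Hoxb4 stood at 0.982 and 0.194 CPM against 9.6 and 12.5 CPM, Hoxa3 at 0.327 and 0.0648 CPM against 8.3 and 7.07 CPM, Hoxb3 at 0.437 and 0.194 CPM against 6.17 and 8.33 CPM and Hoxd4 at 0 and 0.0648 CPM against 4.53 and 5.15 CPM. The ratio of pooled counts was 17.9 for Hoxb4 (exact 95% interval 11.5 to 29.3) and 36.8 for Hoxa3 (17.6 to 92.6). Hoxb5 had 0 counts in the endocardial libraries and 63 in the coronary ones, at least 22.7-fold higher against a bound of 3 counts over the group. Hoxd3 alone was not called, with 0 against 2 counts. Iroquois genes ran in the opposite direction, with 4 of 5 lower (median -2.91). Irx5 stood at 46.9 and 42.9 CPM against 1.51 and 1.44 CPM (-4.93 ± 0.26), Irx3 at 35.6 and 37.6 CPM against 3.91 and 5.75 CPM (-2.91 ± 0.24) and Irx6 at 13.8 and 13.1 CPM against 0.206 and 0.24 CPM (-5.87 ± 0.32), while Irx4 was not called (0.218 and 0.324 CPM against 0.48 and 0.359 CPM). Meis2, a partner of Hox proteins, stood at 124 and 114 CPM against 20.5 and 13 CPM (-2.84 ± 0.24), and of the Meis and Pbx genes 4 of 6 were lower and 1 higher. Prox1, the lymphatic master factor that the endocardium also expresses, stood at 69 and 53.9 CPM against 6.51 and 6.41 CPM (-3.25 ± 0.17).

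Of 22 forkhead factors 5 were higher and 10 lower (median -0.25). Only 2 were called higher under the stricter filter of at least 1 CPM in 4 libraries. Foxc1 and Foxc2, factors of endothelial and valve development, stood at 226 and 205 CPM against 22 and 18 CPM (-3.43 ± 0.14) and 51 and 42.6 CPM against 9.74 and 7.79 CPM (-2.42 ± 0.19). Foxp4 stood at 85.7 and 77.8 CPM against 13.4 and 8.81 CPM (-2.89 ± 0.20), Foxp1 at 193 and 184 CPM against 94.6 and 93.4 CPM (-1 ± 0.09) and Foxo1, a brake on endothelial growth, at 172 and 151 CPM against 85.3 and 84.3 CPM (-0.93 ± 0.08). Foxm1, a driver of mitotic genes, went the other way at 35.5 and 39.3 CPM against 97.9 and 94.1 CPM (1.36 ± 0.13). Foxk1 (75.3 and 73.9 CPM against 72.6 and 73.2 CPM) and Foxk2 (85.6 and 93.3 CPM against 89.5 and 88.4 CPM) were not called.

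Of 28 general endothelial factors 14 were called higher in the coronary libraries and 7 lower, with a median of 0.40. The SoxF factor Sox17, which specifies arteries, stood at 7.26 and 5.96 CPM against 131 and 138 CPM (4.34 ± 0.27), and Sox18 at 47.4 and 42.2 CPM against 209 and 209.9 CPM (2.23 ± 0.22), while Sox7 was not called (253 and 263 CPM against 309.6 and 316 CPM). Ets1 stood at 387 and 362 CPM against 942 and 1005 CPM (1.38 ± 0.11) and Bcl6b, an endothelial repressor, at 97.2 and 103 CPM against 356 and 368 CPM (1.86 ± 0.14). The venous factor Nr2f2 stood at 185 and 177 CPM against 51.4 and 47.9 CPM (-1.87 ± 0.07). Of the pan-endothelial list 14 of 22 genes were higher and 5 lower, with a median of 0.50, and 9 were higher without coronary replicate 2 or without endocardial replicate 1. Without the gate genes Emcn and Pecam1 the counts were 13 higher and 4 lower of 20 (median 0.59). Kdr, the main VEGF receptor, stood at 681 and 752 CPM against 2327 and 2770.0 CPM (1.83 ± 0.16), and Ptprb, the endothelial phosphatase VE-PTP, at 206 and 191 CPM against 678 and 765 CPM (1.86 ± 0.11). Tek, the angiopoietin receptor, stood at 1151 and 1120.1 CPM against 427 and 452 CPM (-1.37 ± 0.07), and Mmrn2 at 1090.2 and 1069.7 CPM against 454 and 459.8 CPM (-1.24 ± 0.10). Egfl7 (481 and 511 CPM against 558 and 662 CPM), Ecscr (171 and 176 CPM against 162 and 187 CPM) and Nos3 (583 and 566 CPM against 542 and 587 CPM) were not called. By DESeq2's Wald test the adjusted p was 0.0172 for Egfl7 and 0.0455 for Sox7. RNA of the pan-endothelial genes was present in all 4 libraries.

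Heart capillary genes were higher in the coronary libraries almost throughout, with 17 of 18 called higher and a median of 5.17. In this list 17 of the 18 genes were also higher in coronary replicate 2 than in replicate 1, by a median of 0.35 on the log2 scale. Gpihbp1, which carries lipoprotein lipase across capillary cells, stood at 9.44 and 12.5 CPM against 321 and 427 CPM (5.1 ± 0.38), and Btnl9 at 6.99 and 9.27 CPM against 488 and 571 CPM (6.03 ± 0.32). Cxcl12 stood at 6.49 and 8.3 CPM against 222 and 388 CPM (5.37 ± 0.34), and Timp4, a metalloproteinase inhibitor, at 0.709 and 0.843 CPM against 34.8 and 40.6 CPM (5.6 ± 0.39). The exception was Fabp5, a fatty acid binding protein, which was lower at 1878 and 2184 CPM against 578 and 735 CPM (-1.63 ± 0.14), whereas its relative Fabp4 stood at 69.7 and 109.8 CPM against 2962 and 3985 CPM (5.28 ± 0.47).

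In the wider list of lipid uptake and oxidation, of 45 genes 19 were higher and 9 lower, with a median of 0.16. Mgll, which releases fatty acids from monoglycerides, stood at 37.7 and 41.6 CPM against 531 and 806 CPM (4.08 ± 0.28), Angptl4, an inhibitor of lipoprotein lipase, at 3.44 and 3.24 CPM against 47.2 and 69.8 CPM (4.13 ± 0.23) and the scavenger receptor Cd36 at 157 and 163 CPM against 1868 and 2569.9 CPM (3.79 ± 0.41). Acsl1, which activates long-chain fatty acids, stood at 16.7 and 13.4 CPM against 50.5 and 47 CPM (1.69 ± 0.15). Pparg, a nuclear receptor for fatty acids, stood at 3.33 and 4.86 CPM against 42 and 60.1 CPM (3.65 ± 0.41). Several enzymes of mitochondrial oxidation were not called. Hadha stood at 182 and 186 CPM against 203 and 204 CPM, Cpt1a, the gate of mitochondrial import, at 61.8 and 55.6 CPM against 59.2 and 61.8 CPM, and Acsl5 at 123 and 126 CPM against 123 and 119 CPM, none of these called. By DESeq2's Wald test the adjusted p of Hadha was 0.00843. Hadhb (75.3 and 84.1 CPM against 85.6 and 99.6 CPM) was not called, and had an adjusted p of 0.0197 by edgeR with the replicate block, the fit that keeps each endocardial library paired with the coronary library of its batch. Acadm was lower at 67.6 and 68.1 CPM against 49.9 and 53.4 CPM (-0.39 ± 0.06) and Acadl higher at 62.6 and 71.9 CPM against 79.3 and 84.6 CPM (0.29 ± 0.08).

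Cell contacts differed in kind rather than in one direction. Of 21 tight junction genes 10 were higher and 9 lower (median 0.50). Besides Cldn5, the scaffold Tjp1 (ZO-1) stood at 255 and 268 CPM against 684 and 708 CPM (1.41 ± 0.12), Afdn at 185 and 188 CPM against 390.1 and 421 CPM (1.12 ± 0.10) and the adhesion molecule Jam2 at 112 and 91.9 CPM against 257 and 301 CPM (1.45 ± 0.16). On the endocardial side, Cgnl1, the junction protein paracingulin, stood at 1546 and 1507 CPM against 211 and 189.6 CPM (-2.93 ± 0.11), Cldn11 at 17.2 and 16.5 CPM against 1.85 and 1.5 CPM (-3.33 ± 0.22), Lsr, a protein of tricellular contacts, at 30.2 and 24.5 CPM against 3.15 and 4.73 CPM (-2.78 ± 0.19) and Ocln at 21.6 and 23.5 CPM against 6.17 and 5.99 CPM (-1.89 ± 0.20). Claudins of other epithelia, Cldn3 (0.327 and 0.389 CPM against 0.274 and 0.24 CPM) and Cldn15 (4.75 and 3.89 CPM against 5.76 and 6.47 CPM), were not called. Of 9 desmosomal genes 4, among them Dsg2, were lower in the coronary libraries and 1 was higher (median -0.22). Dsc2, the partner cadherin of Dsg2, stood at 4.97 and 6.22 CPM against 0.411 and 0.299 CPM (-3.96 ± 0.42), the plakophilin Pkp2 at 35.8 and 34.2 CPM against 2.88 and 1.86 CPM (-3.9 ± 0.14) and desmoplakin, Dsp, at 41.4 and 40.9 CPM against 11.9 and 9.16 CPM (-1.97 ± 0.27). The exception was plakoglobin, Jup, which also serves adherens junctions, at 149 and 158 CPM against 519 and 609 CPM (1.88 ± 0.15). Desmosomal genes are also expressed by heart muscle, and the summed level of 17 cardiomyocyte markers was 428 and 357 CPM in the endocardial and 418 and 302 CPM in the coronary libraries.

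Among cadherins 7 of 22 were higher and 7 lower (median -0.07). Cdh11, a cadherin of mesenchyme and endocardium, stood at 1473 and 1457 CPM against 35 and 32.3 CPM (-5.44 ± 0.17), and Pcdh7 at 144 and 168 CPM against 6.03 and 2.94 CPM (-5.14 ± 0.31). Coronary libraries were high for the protocadherins Pcdh1 at 23.8 and 19.4 CPM against 463 and 492 CPM (4.46 ± 0.21), Pcdh17 at 17.4 and 17.3 CPM against 328 and 337 CPM (4.26 ± 0.18), Pcdh19 at 6.71 and 3.5 CPM against 115 and 122 CPM (4.51 ± 0.33) and the vascular Pcdh12 at 53.1 and 55.2 CPM against 326 and 337 CPM (2.62 ± 0.15). Gap junction genes were higher or not called, with 3 of 6 higher (median 1.10). Gja5, the connexin of arteries, stood at 3.98 and 2.92 CPM against 75.9 and 96.6 CPM (4.63 ± 0.37), Gja1 at 93.1 and 109 CPM against 302 and 303 CPM (1.58 ± 0.14) and Gjc1 at 29.6 and 28.9 CPM against 67.4 and 57.5 CPM (1.09 ± 0.10). Gja4, another arterial connexin, was not called (91.5 and 96.2 CPM against 76.5 and 91.8 CPM). The fenestral and caveolar list leaned to the coronary side, with 8 of 13 genes higher and 2 lower, Plvap and Pacsin3 (median 0.54). Caveolin, Cav1, stood at 905 and 1016 CPM against 3812 and 4750.2 CPM (2.16 ± 0.28), Cavin1 at 732 and 738 CPM against 1589 and 1664 CPM (1.15 ± 0.14) and Ehd2, which holds the caveolar neck, at 708 and 715 CPM against 1576 and 1793 CPM (1.24 ± 0.17), while Cavin2 was not called (1069 and 1162 CPM against 928 and 1067 CPM).

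Transporter genes were called in both directions. Of 41 nutrient transporters 16 were higher and 14 lower (median 0.27), or 9 lower without endocardial replicate 2. Of all genes tested 26.5% were higher and 26.1% lower. Abcb1a, the drug efflux pump of tight capillary beds, stood at 1.8 and 1.49 CPM against 111 and 137 CPM (6.22 ± 0.37), the nucleoside transporter Slc28a2 at 2.4 and 2.01 CPM against 83.5 and 84.3 CPM (5.24 ± 0.47) and the organic anion transporter Slco2b1 at 2.29 and 1.81 CPM against 38.2 and 49.3 CPM (4.4 ± 0.26). The zinc transporters Slc39a10 and Slc39a8 ran in opposite directions, at 94.4 and 88.6 CPM against 192 and 207 CPM (1.12 ± 0.07) and 27.8 and 33.1 CPM against 7.13 and 6.41 CPM (-2.17 ± 0.12). The cationic amino acid transporter Slc7a1 was lower at 221 and 219.5 CPM against 117 and 117 CPM (-0.92 ± 0.06). Of 20 carbonic anhydrases, aquaporins and related genes 8 were higher and 4 lower (median 0.39). Aqp1, the main endothelial water channel, stood at 180.0 and 133 CPM against 921 and 1173 CPM (2.74 ± 0.22), and Car7 at 0.655 and 0.519 CPM against 14.3 and 14.6 CPM (4.6 ± 0.43). Car8, a carbonic anhydrase relative, was lower at 226 and 228 CPM against 88.9 and 89.3 CPM (-1.35 ± 0.12).

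Potassium channel genes were higher in 13 of 25 cases and lower in 6, with a median of 1.55, or 0.78 with 1 gene at its bound. Kcnj8 and Abcc9, the subunits of the vascular ATP-sensitive channel, stood at 1.64 and 0.907 CPM against 51 and 39.4 CPM (5.12 ± 0.26) and 29.3 and 48 CPM against 539 and 515 CPM (3.78 ± 0.26). Both also stand on the mural marker list, which was higher in the coronary libraries, and their part in that difference was not tested. Kcna5 stood at 20.4 and 28.6 CPM against 171 and 220.2 CPM (3 ± 0.23) and Kcne3 at 2.51 and 4.67 CPM against 43.8 and 52.1 CPM (3.76 ± 0.32). On the endocardial side Kcnd3 stood at 65.8 and 63.1 CPM against 0.411 and 1.32 CPM (-6.17 ± 0.27) and Kcnk5 at 14.8 and 13.4 CPM against 2.61 and 1.56 CPM (-2.76 ± 0.20). Adhesion receptors of the G protein-coupled class were called in both directions, 7 higher and 4 lower of 15 (median 0.70). Adgrg1 stood at 3.38 and 2.53 CPM against 91.6 and 123 CPM (5.17 ± 0.29) and Adgre5 (CD97) at 109.6 and 116 CPM against 347 and 380.4 CPM (1.69 ± 0.13). Adgra2, the co-receptor of Wnt7 in vessels of the brain, stood at 1077 and 1183 CPM against 341 and 326 CPM (-1.76 ± 0.07).

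Arterial genes were mostly higher in the coronary libraries (16 of 20, with 1 lower, median 1.8) and venous genes mostly lower (8 of 14, with 4 higher, median -1.69). Of the venous genes Emcn was selected by the gate, and without it 7 of 13 were lower and 4 higher (median -1.56). Both coronary gates took cells with little endomucin. The Tomato+ gate was described as enriched in arteries and capillaries and the Tomato- gate in veins. Which of them gave these libraries is not known, and the part of the sort in the arterial and venous results was not tested. The arterial Sema3g stood at 2.67 and 3.18 CPM against 156 and 176 CPM (5.83 ± 0.26) and Cxcr4 at 3.66 and 1.43 CPM against 67.8 and 62.8 CPM (4.64 ± 0.30). Bmx, an arterial and endocardial kinase, was the exception at 111 and 97.9 CPM against 7.82 and 7.91 CPM (-3.73 ± 0.14), and Nrp1 was not called (816 and 825 CPM against 826 and 943 CPM). Among venous genes Cpe stood at 2066 and 2218 CPM against 85.8 and 57.5 CPM (-4.9 ± 0.23) and Vwf, von Willebrand factor, at 1409 and 1974 CPM against 150.1 and 177 CPM (-3.37 ± 0.15), while Aplnr, the apelin receptor of veins and capillaries, stood at 22.8 and 24.4 CPM against 607 and 614 CPM (4.69 ± 0.27). Ephb4 stood at 538 and 551 CPM against 468 and 487 CPM and was not called (-0.19 ± 0.13), though its adjusted p was 0.0415 by edgeR with the replicate block. Of 12 lymphatic genes 2 were higher and 4 lower (median -0.15), or 1 higher without coronary replicate 1. Lyve1, a hyaluronan receptor, stood at 111 and 179 CPM against 5.69 and 4.73 CPM (-4.8 ± 0.28) and Fgl2 at 53.4 and 90.9 CPM against 4.94 and 2.46 CPM (-4.3 ± 0.31), whereas Flt4 was higher at 151 and 175 CPM against 354 and 354 CPM (1.12 ± 0.13). Reln was called higher at 2.35 and 3.18 CPM against 12.8 and 6.17 CPM, and its adjusted p was 0.066 by edgeR without coronary replicate 1.

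Notch pathway genes were split by member. Of 22 tested 12 were higher and 6 lower, with a median of 0.89, and 3 were lower without coronary replicate 2 or without endocardial replicate 1. Among ligands Jag2 stood at 6.6 and 6.35 CPM against 241 and 271 CPM (5.3 ± 0.23) and Dll4, the arterial ligand, at 88.6 and 89 CPM against 283 and 307 CPM (1.73 ± 0.21), while Dll1 was lower at 98.6 and 82.3 CPM against 12.1 and 10.5 CPM (-3 ± 0.10). Among receptors Notch4, the endothelial receptor, stood at 187 and 208 CPM against 521 and 550.5 CPM (1.44 ± 0.16) and Notch1 at 826 and 822 CPM against 637 and 672 CPM (-0.33 ± 0.07). The fringes, which modify the receptors, were higher for Lfng at 2.35 and 2.59 CPM against 24.2 and 28.3 CPM (3.41 ± 0.29) and Mfng at 23.8 and 26.4 CPM against 137 and 149 CPM (2.51 ± 0.17), while Rfng was not called (24.3 and 23.1 CPM against 22.2 and 24.1 CPM). Among effectors Nrarp stood at 29.1 and 28 CPM against 174 and 192 CPM (2.68 ± 0.20), Heyl at 3.44 and 3.11 CPM against 26.5 and 17.4 CPM (2.74 ± 0.29) and Hey1 at 36.8 and 30 CPM against 112 and 133 CPM (1.87 ± 0.18), whereas Hes1 was lower at 143 and 119 CPM against 101 and 92.7 CPM (-0.44 ± 0.11). Rbpj, the DNA-binding partner of all Notch receptors, was not called (80.9 and 70.8 CPM against 80.2 and 59.3 CPM).

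Of the VEGF ligands, receptors and co-receptors 8 of 11 were higher and 1 lower, with a median of 1.12. Vegfc stood at 13 and 11.3 CPM against 45.2 and 42.3 CPM (1.84 ± 0.13), Pgf at 1.42 and 0.713 CPM against 13.4 and 11 CPM (3.48 ± 0.26), the co-receptor Nrp2 at 172 and 187 CPM against 760.1 and 867 CPM (2.18 ± 0.18) and Esm1, a tip cell proteoglycan, at 0.873 and 1.69 CPM against 17.4 and 14.6 CPM (3.66 ± 0.35). Both receptors of the Tie family were lower, since Tie1 stood at 1580.1 and 1592 CPM against 1171 and 1256 CPM (-0.39 ± 0.08) beside Tek above. Angpt2 stood at 23.4 and 30.1 CPM against 18 and 19.3 CPM and was called lower (-0.52 ± 0.19), but its adjusted p by edgeR was 0.147, 0.087 and 0.271 without coronary replicate 1, coronary replicate 2 and endocardial replicate 2. Apelin, Apln, stood at 7.86 and 8.62 CPM against 209 and 263 CPM (4.84 ± 0.35), so ligand and receptor were high in the same libraries, while the other ligand, Apela, had 1 count in each group, too few to compare. Tip cell genes were higher in 16 of 17 cases (median 3.19), Angpt2 being the exception. Among them Unc5b, a netrin receptor, stood at 33.6 and 27 CPM against 610.5 and 683 CPM (4.41 ± 0.13) and the basement membrane nidogen Nid2 at 79.2 and 98.5 CPM against 1237 and 1432 CPM (3.91 ± 0.21).

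**Figure D3:**
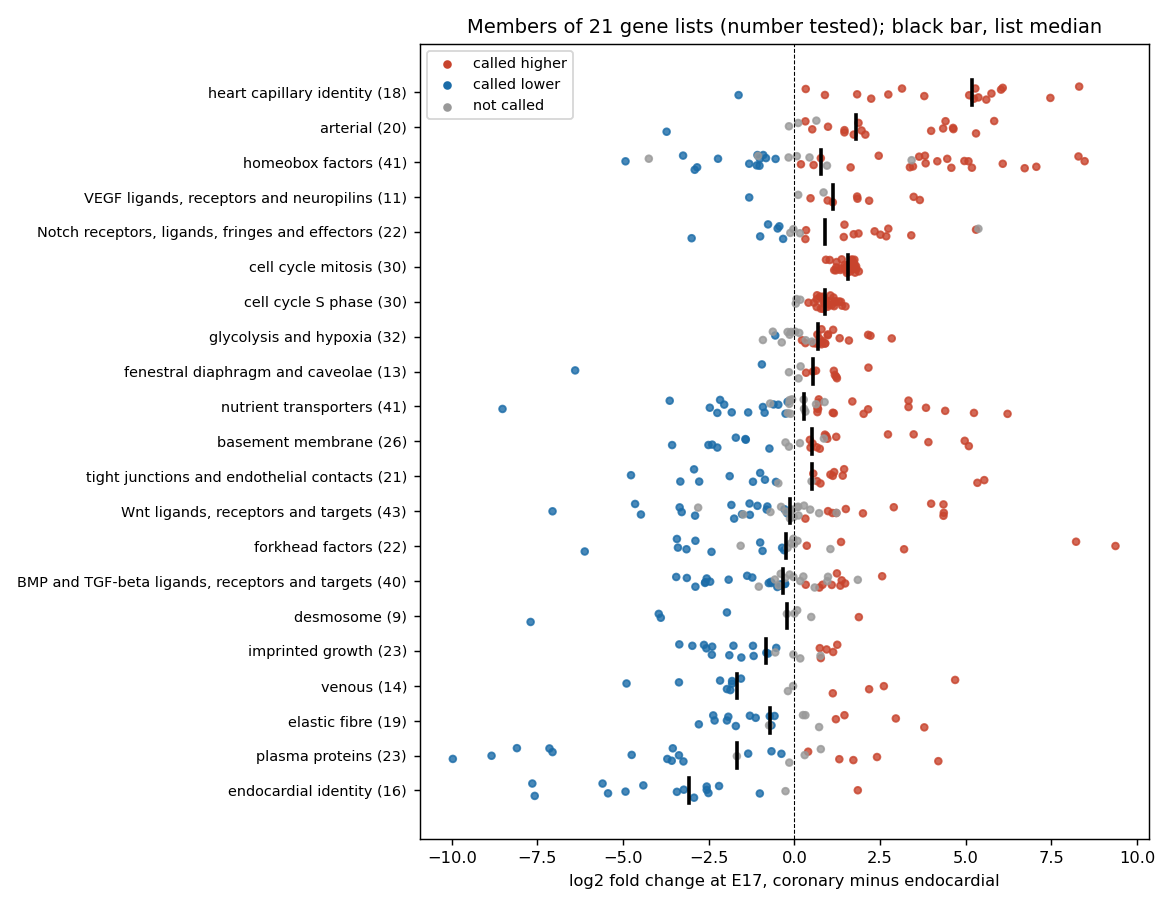
Log2 fold change at E17 (x, coronary minus endocardial) of each tested member of 21 gene lists (y, with the number tested); red, called higher, blue, called lower, grey, not called, and black bars are list medians. The heart capillary list lies furthest to the right (median 5.17), the endocardial list furthest to the left (-3.08), and the mitosis list has the tightest spread.

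Of 31 genes of vasoactive systems 9 were higher and 12 lower (median -0.06), where 26.5% of all genes tested were higher and 26.1% lower. In the natriuretic peptide system, Corin, the protease that activates the peptides, stood at 79.4 and 81 CPM against 2.26 and 1.32 CPM (-5.5 ± 0.21), and with Npr3 it marked the endocardial side, while the signalling receptor Npr1 was higher in the coronary libraries at 168 and 153 CPM against 291 and 305 CPM (0.89 ± 0.13). The endothelin system was called in both directions. The ligand Edn1 stood at 92.7 and 110.3 CPM against 15.8 and 18.6 CPM (-2.56 ± 0.15), the converting enzyme Ece1 at 3295 and 3557 CPM against 511 and 526 CPM (-2.72 ± 0.09) and the receptor Ednrb at 1327 and 1261 CPM against 204 and 182 CPM (-2.74 ± 0.18). The other receptor, Ednra, was higher at 0.218 and 0.389 CPM against 7.13 and 4.01 CPM (4.19 ± 0.61), and the converting enzyme Ece2 was not called (8.79 and 8.23 CPM against 8.78 and 8.03 CPM). Nos3, the endothelial nitric oxide synthase, showed no called difference against the large one of Nos2. The prostaglandin synthase Ptgs1 stood at 207 and 254 CPM against 27.8 and 28.3 CPM (-3.04 ± 0.20) and Ptgs2 at 13.4 and 14.8 CPM against 0.96 and 0.479 CPM (-4.3 ± 0.39). Ddah2 (258 and 257 CPM against 238 and 256 CPM) and Furin (180.2 and 179 CPM against 187 and 197 CPM) were not called.

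In the BMP and TGF-beta pathway 18 of 40 genes were lower and 9 higher (median -0.34). Among ligands Bmp6 stood at 149.9 and 173 CPM against 23.2 and 31.4 CPM (-2.56 ± 0.20) and Tgfb2, a ligand of cushion formation, at 106 and 129 CPM against 21.1 and 17.7 CPM (-2.6 ± 0.29), while Tgfb1 was not called (164 and 176 CPM against 163 and 169 CPM). Among receptors Bmpr1a stood at 148 and 139 CPM against 17.4 and 9.16 CPM (-3.45 ± 0.27), Acvr1 at 208 and 213 CPM against 86.5 and 93.3 CPM (-1.23 ± 0.06) and Tgfbr3 at 297 and 334 CPM against 85.3 and 81.9 CPM (-1.92 ± 0.16), but Acvr2a was higher at 30.8 and 28.3 CPM against 74.3 and 79.1 CPM (1.38 ± 0.10). Acvrl1, the endothelial BMP9 and BMP10 receptor, and its co-receptor Eng ran in opposite directions, Acvrl1 at 79.9 and 90.7 CPM against 192 and 239 CPM (1.34 ± 0.20) and Eng at 2887 and 3286 CPM against 1039 and 1325 CPM (-1.38 ± 0.12). The target genes split as well, with Id2 lower at 190.3 and 176 CPM against 25.2 and 24.2 CPM (-2.89 ± 0.22) and Id1 higher at 72.1 and 60.2 CPM against 184 and 187 CPM (1.48 ± 0.13). Ltbp1, which stores TGF-beta in the matrix, stood at 614 and 603 CPM against 103 and 118 CPM (-2.46 ± 0.18). Smad5 (204 and 214 CPM against 199.6 and 180.2 CPM) and Smad7 (117 and 128 CPM against 122 and 152 CPM) were not called.

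In the Wnt list 16 of 43 genes were lower and 11 higher (median -0.13). The ligands Wnt11 and Wnt2 stood at 49.6 and 57.2 CPM against 2.4 and 1.86 CPM (-4.65 ± 0.14) and 28.4 and 18.8 CPM against 0.892 and 1.2 CPM (-4.48 ± 0.38). Reck, which with Adgra2 forms the Wnt7 receptor complex, stood at 168 and 187 CPM against 25.6 and 22 CPM (-2.9 ± 0.18). On the coronary side the antagonist Dkk2 stood at 0.764 and 0.194 CPM against 7.61 and 8.45 CPM (3.99 ± 0.32) and Ccnd1, a Wnt target and cyclin of the G1 phase, at 232 and 331 CPM against 704 and 886 CPM (1.5 ± 0.15). Among other Wnt targets on the list, Axin2, Notum, Nkd1, Apcdd1 and Sp5 were called lower. Tcf7 was called higher, and Lef1, Lgr5, Rnf43 and Znrf3 were not called. Fzd6 and Fzd8 (21.8 and 20.4 CPM against 25 and 20.8 CPM) were not called either.

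Guidance genes were called in 33 of 39 cases, 19 higher and 14 lower (median 0.24). Ephb1 stood at 0.546 and 0.583 CPM against 53.2 and 38.3 CPM (6.33 ± 0.41), and with Sema7a and Sema3g it was among the larger coronary excesses. Epha7 stood at 230.3 and 243 CPM against 11.2 and 4.79 CPM (-4.91 ± 0.34), Sema3a, a repellent of vessels and nerves, at 86.5 and 98.2 CPM against 8.57 and 9.22 CPM (-3.37 ± 0.15) and Slit3 at 107 and 140.0 CPM against 4.11 and 1.68 CPM (-5.44 ± 0.57). Its receptor Robo1 was higher in the coronary libraries at 24.8 and 19.6 CPM against 78.7 and 53.6 CPM (1.57 ± 0.22). Plxna1 was not called (115 and 114 CPM against 110.5 and 101 CPM).

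Chemokine ligands and receptors were called in both directions, with 5 of 13 higher and 5 lower (median -0.15). The chemokine Cxcl12 and its signalling receptor Cxcr4 were high in the coronary libraries, whereas Ackr3, the scavenging receptor for the same ligand, was endocardial at 406 and 392 CPM against 37.4 and 31.4 CPM (-3.54 ± 0.15). Ccl2 stood at 21.4 and 28.3 CPM against 5.83 and 2.28 CPM (-2.63 ± 0.34), Cxcl16 at 58 and 60.3 CPM against 9.94 and 10.8 CPM (-2.51 ± 0.12) and Cx3cl1 at 6.99 and 8.82 CPM against 31.3 and 43.7 CPM (2.25 ± 0.27). Cxcl10 was not called (5.02 and 1.43 CPM against 9.12 and 4.55 CPM), and had an adjusted p of 0.031 by edgeR with the replicate block. Of 22 TNF ligands and receptors 9 were higher (median 0.18). Besides Tnfrsf9, its ligand Tnfsf9 stood at 1.91 and 2.85 CPM against 10.1 and 11.6 CPM (2.19 ± 0.26), Tnf at 0.382 and 0.648 CPM against 4.66 and 4.37 CPM (3.13 ± 0.57) and Tnfrsf1a, the main TNF receptor, at 166 and 169 CPM against 237 and 266 CPM (0.59 ± 0.10). Cd40 (11.7 and 11.9 CPM against 12.3 and 13.8 CPM) and Tnfsf12 (24.1 and 23.5 CPM against 21.3 and 21.3 CPM) were not called, and with the replicate block 1 member of the list was called lower.

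Neuregulin, the ligand that the endocardium sends to heart muscle for trabecular growth, was an endocardial product in these libraries. Nrg1 stood at 42.9 and 44.5 CPM against 0.96 and 0.839 CPM (-5.6 ± 0.24), Nrg4 at 4.69 and 4.93 CPM against 0.48 and 0.719 CPM (-2.98 ± 0.28) and Tgfa at 24.4 and 26.8 CPM against 2.4 and 2.88 CPM (-3.27 ± 0.13). Of the receptors Erbb2 stood at 65.3 and 63.4 CPM against 43.3 and 44.4 CPM (-0.55 ± 0.10) and Egfr at 0.437 and 0.259 CPM against 4.46 and 1.62 CPM (3.07 ± 0.72). In all 1 of 10 genes was higher and 4 lower (median -0.49), and Hbegf was not called (53.3 and 45.1 CPM against 39 and 34.6 CPM).

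Genes for plasma proteins were a mainly endocardial group, and Vwf is counted both here and among the venous genes. Of 23 tested 14 were lower in the coronary libraries and 5 higher, with a median of -1.68, the same with 2 genes at their bound. Apoe stood at 1837 and 1808 CPM against 86 and 49.8 CPM (-4.75 ± 0.25) and transferrin, Trf, at 62.8 and 82.3 CPM against 8.98 and 6.41 CPM (-3.24 ± 0.24). Next to Apoc1 and Itih3 above, Itih2 had 218 endocardial and 0 coronary counts, at least 67.3-fold against a bound of 3 counts over the group, and Apob 103 and 0, at least 31.8-fold. The exceptions included Plau, the urokinase plasminogen activator, at 3.44 and 3.95 CPM against 71.2 and 64.8 CPM (4.2 ± 0.26) and Plat, its tissue-type relative, at 95.3 and 109 CPM against 253 and 253 CPM (1.31 ± 0.12). The clotting cofactor F5 stood at 3.87 and 3.18 CPM against 0.48 and 0.12 CPM (-3.58 ± 0.36), and F8 was not called (7.26 and 7.58 CPM against 9.4 and 8.87 CPM). Alb, Afp, Ttr and 9 further members were too low to be tested.

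Matrix genes showed a change of composition. Of 26 basement membrane genes 14 were higher and 8 lower (median 0.50). Sparcl1 stood at 114 and 135 CPM against 3560.3 and 4236 CPM (4.97 ± 0.32), Sparc at 2294 and 2583 CPM against 5384 and 5984 CPM (1.22 ± 0.10), Lama2 at 1.26 and 1.69 CPM against 54.6 and 44.9 CPM (5.09 ± 0.48) and Lama3 at 3.6 and 3.76 CPM against 24 and 24.9 CPM (2.73 ± 0.26). On the endocardial side Col4a5 stood at 181 and 181 CPM against 16.2 and 14.3 CPM (-3.57 ± 0.14) and agrin, Agrn, at 1672 and 1789.8 CPM against 992 and 1100.0 CPM (-0.73 ± 0.09). Col18a1 (2527 and 2476 CPM against 2669.8 and 2929.8 CPM), Nid1 (1748 and 1808 CPM against 1588 and 1605 CPM) and Lama5 (55.3 and 46.8 CPM against 40.8 and 44.7 CPM) were not called. Elastic fibre genes were mainly endocardial, with 11 of 19 lower and 4 higher (median -0.72). Elastin, Eln, stood at 1057 and 1194 CPM against 354 and 336 CPM (-1.71 ± 0.21), the fibrillin Fbn1 at 1430.3 and 1347 CPM against 604 and 526 CPM (-1.3 ± 0.12), Fbln2 at 1362 and 1357 CPM against 321 and 391 CPM (-1.93 ± 0.24), Mfap5 at 119.8 and 99 CPM against 14.1 and 17.6 CPM (-2.79 ± 0.22) and Mfap2 at 185 and 157 CPM against 40 and 28 CPM (-2.33 ± 0.23). Fbn2 was not called (152 and 96.5 CPM against 101 and 48.4 CPM). Fibroblasts also make these proteins, and 12 of the 14 elastic fibre genes at 10 CPM or more were lower in coronary replicate 2 than in replicate 1.

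Matrix proteases and their inhibitors were called 12 higher and 8 lower of 29 (median 0.25), but 7 higher without coronary replicate 1 or without endocardial replicate 1, and 5 lower without the latter. Mmp2 stood at 569.8 and 538 CPM against 152 and 83.4 CPM (-2.24 ± 0.22) and Mmp28 at 65.3 and 56.1 CPM against 21.2 and 17.7 CPM (-1.64 ± 0.12). Adamts4 stood at 9.82 and 9.53 CPM against 93.5 and 112 CPM (3.41 ± 0.17), Adamts9 at 129 and 155 CPM against 334 and 413 CPM (1.4 ± 0.14) and the membrane-type Mmp15 at 92.1 and 97.9 CPM against 393 and 422 CPM (2.1 ± 0.11). Timp2 (214 and 169 CPM against 174 and 149 CPM) and Adamts8 (39 and 40.6 CPM against 35 and 40 CPM) were not called. Of 21 integrins 6 were higher and 4 lower (median 0.02), or 2 lower without coronary replicate 2. The collagen receptors Itga1 and Itga2 stood at 38 and 46.9 CPM against 155 and 142 CPM (1.81 ± 0.14) and 20 and 15.7 CPM against 94.6 and 91.7 CPM (2.38 ± 0.17), and Itgb3 at 3.82 and 4.21 CPM against 21.7 and 18.3 CPM (2.31 ± 0.17). Itga6 (945 and 943 CPM against 924 and 974 CPM), a laminin receptor, and Itga5 (516 and 529 CPM against 453 and 476 CPM), the fibronectin receptor, were not called. Of 21 valve and mesenchymal transition genes 10 were higher and 4 lower (median 0.35). Besides Tbx2 and Tbx3, the transition factor Snai2 stood at 4.69 and 3.18 CPM against 27.1 and 21.7 CPM (2.62 ± 0.29) and Msx1 at 9.82 and 6.35 CPM against 23.7 and 27 CPM (1.64 ± 0.20), while Postn was not called (1144 and 1033 CPM against 1041 and 487 CPM). In this list 13 of the 15 genes at 10 CPM or more were lower in coronary replicate 2.

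Cell cycle genes were higher in the coronary libraries as a block, with 30 of 30 mitotic genes called higher (median 1.56) and 27 of 30 S phase genes (median 0.88). Mki67 stood at 138 and 181 CPM against 609.9 and 560.1 CPM (1.88 ± 0.13), the centromere proteins Cenpa at 20.8 and 24 CPM against 69.5 and 74.6 CPM (1.69 ± 0.12) and Cenpe at 36.5 and 40.3 CPM against 129.6 and 128 CPM (1.75 ± 0.14), and Rrm2, which supplies deoxynucleotides, at 34.9 and 46 CPM against 114 and 113 CPM (1.49 ± 0.14). Gins2 (37.5 and 40.6 CPM against 41.8 and 45.8 CPM), Rfc3 (23.3 and 24.8 CPM against 25.9 and 23.4 CPM) and Ccne1 were not called. Within the endocardial pair all 30 mitotic genes were higher in replicate 2, by a median of 0.40, which is smaller than the difference between populations. The cell cycle inhibitors were called 6 higher and 4 lower of 14 (median 0.16). Cdkn1c, the imprinted p57 inhibitor, stood at 1767 and 1790.0 CPM against 173 and 172 CPM (-3.36 ± 0.21). Its relatives ran the other way, Cdkn1a (p21) at 31.6 and 27.6 CPM against 68.6 and 94.1 CPM (1.46 ± 0.20) and Cdkn1b (p27) at 78.1 and 74 CPM against 134 and 134 CPM (0.82 ± 0.06). Btg1, an antiproliferative factor, stood at 364 and 352 CPM against 229 and 222 CPM (-0.66 ± 0.06), and Gadd45b was not called (32.2 and 23.6 CPM against 24.2 and 14.5 CPM).

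Imprinted growth genes were lower in 14 of 23 cases and higher in 5 (median -0.82). The growth factor Igf2 stood at 24291 and 26131 CPM against 6662 and 6834 CPM (-1.9 ± 0.09), its neighbour H19 at 45418 and 46053 CPM against 8385 and 8890.1 CPM (-2.4 ± 0.09), the clearance receptor Igf2r at 4835 and 5086 CPM against 1429 and 1467 CPM (-1.78 ± 0.08) and the regulator Plagl1 at 2867 and 2832 CPM against 477 and 481 CPM (-2.57 ± 0.09). Grb10, a brake on insulin signalling, was higher at 575 and 567 CPM against 1251 and 1249.7 CPM (1.13 ± 0.06). Meg3 was not called (24.1 and 21.1 CPM against 55.7 and 21.6 CPM), and had an adjusted p of 0.0436 by edgeR with the replicate block. Of 16 genes of the IGF system 4 were higher and 7 lower (median -0.51). Igfbp5 stood at 5533 and 5231 CPM against 391 and 389 CPM (-3.79 ± 0.19) and Igfbp4 at 1788 and 1805 CPM against 747 and 736 CPM (-1.28 ± 0.08), whereas Igfbp7, a protein of vascular basement membranes, stood at 2.84 and 1.69 CPM against 109.9 and 98.2 CPM (5.5 ± 0.24). The fetal timing genes Igf2bp1 (40.2 and 33.9 CPM against 39.3 and 36.2 CPM), Igf2bp2 (80.8 and 77 CPM against 71 and 69.4 CPM) and Igf2bp3 (46.2 and 46.5 CPM against 47.1 and 48.7 CPM) were not called, but Hmga2 was higher at 11 and 10.4 CPM against 54.2 and 53 CPM (2.32 ± 0.09), and in all 3 of the 11 genes of that list were higher and 3 lower (median 0.05). Glycolysis and hypoxia genes were higher in 21 of 32 cases and lower in 1 (median 0.69). Pkm stood at 543 and 658 CPM against 1168 and 1456 CPM (1.13 ± 0.15), Gapdh at 118 and 125 CPM against 212 and 241 CPM (0.9 ± 0.13), Pfkp at 15.8 and 18.5 CPM against 74.3 and 85.1 CPM (2.22 ± 0.18) and the lactate exporter Slc16a3 at 8.9 and 13.2 CPM against 39.8 and 57.5 CPM (2.15 ± 0.24). Pgam1 (216 and 261 CPM against 244 and 280.1 CPM) and P4ha1 (144 and 178 CPM against 141 and 151 CPM) were not called. Every glycolysis gene at 10 CPM or more was higher in coronary replicate 2 than in replicate 1, 28 in all, by a median of 0.25.

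Interferon and antigen presentation genes were higher in 15 of 33 cases and lower in 7 (median 0.30), with 3 lower without coronary replicate 2. Among the higher genes were those of Ly6 surface proteins, with Ly6c1 at 1.91 and 1.56 CPM against 115 and 153 CPM (6.26 ± 0.29), Ly6a (Sca-1) at 1.15 and 0.259 CPM against 35.4 and 46.1 CPM (5.79 ± 0.40) and Ly6e at 61.8 and 76.8 CPM against 455 and 497 CPM (2.78 ± 0.15). Rsad2, an antiviral enzyme, stood at 2.46 and 1.49 CPM against 29.8 and 22.5 CPM (3.71 ± 0.34), and Tap2, a peptide transporter of antigen presentation, at 17.2 and 17.7 CPM against 43.5 and 45.6 CPM (1.35 ± 0.16). Irf9, a transcription factor of the interferon response, was not called (49.9 and 51.3 CPM against 50.5 and 47.1 CPM). Ifitm2 was lower at 266 and 271 CPM against 191 and 189 CPM (-0.5 ± 0.06).

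Genes responsive to flow were lower more often than higher, 9 against 3 of 19, with a median of -0.52 and 1 higher without coronary replicate 2 or endocardial replicate 2. Piezo1, a mechanically gated channel, stood at 954 and 1025 CPM against 584 and 629 CPM (-0.71 ± 0.09), Klf2, a shear-induced factor, at 359 and 342 CPM against 215 and 205 CPM (-0.74 ± 0.13) and Txnip at 696 and 652 CPM against 363 and 368 CPM (-0.88 ± 0.13). Klf4 stood at 501 and 507 CPM against 378 and 394 CPM and was not called (-0.38 ± 0.20), with an adjusted p of 0.00858 by edgeR with the replicate block. Immediate early and heat shock genes, which respond to handling as well as to signals, were called 2 higher and 5 lower of 24 (median -0.16). With the replicate block 4 were higher. With only the 4 E17 libraries in the fit 4 were higher and 10 lower, and 3 were lower without coronary replicate 2 or endocardial replicate 2. Jun stood at 1736 and 1531 CPM against 834 and 688 CPM (-1.1 ± 0.22), Dnajb1 at 208 and 205 CPM against 95.5 and 87.7 CPM (-1.17 ± 0.13) and Hsph1 at 173 and 141 CPM against 70.2 and 50.4 CPM (-1.38 ± 0.22). Fos stood at 1661 and 2058 CPM against 1119 and 1166 CPM and was not called, with an adjusted p of 0.0384 by edgeR with the replicate block. Hspa1b was not called, and its groups overlapped (1399 and 683 CPM against 987 and 424 CPM).

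Markers of other cell types moved with some of these results. In bulk libraries fewer cells of a type and less RNA per cell cannot be told apart. Mural markers (pericytes and smooth muscle) summed to 181 and 179 CPM in the endocardial and 1128 and 865 CPM in the coronary libraries, and 10 of 12 were called higher (median 2.61). Abcc9 (above) and Rgs5 made up most of the coronary sum. Rgs5, of pericytes, stood at 2.24 and 2.98 CPM against 164 and 111 CPM (5.73 ± 0.62), while Pdgfrb was not called (109 and 95 CPM against 121 and 71.2 CPM) and Acta2, of smooth muscle, stood at 6.55 and 5.25 CPM against 54 and 24.8 CPM (2.73 ± 0.62). Epicardial markers summed to 17 and 18.1 CPM against 161 and 168 CPM, with 5 of 10 higher and 1 lower (median 1.23), the latter between 0 and 2 over the alternatives. Most of that sum was Wt1, which angiogenic endothelium also expresses, at 8.24 and 11.3 CPM against 103 and 134 CPM (3.61 ± 0.36), while Aldh1a2 stood at 0.491 and 0.389 CPM against 18.4 and 9.04 CPM (4.93 ± 0.49). Fibroblast markers summed to 3246 and 3202 CPM against 5093 and 2322 CPM, so the coronary replicates lay on either side of the endocardial pair, and 6 of 12 were higher and 3 lower (median 0.82). All 11 fibroblast genes at 10 CPM or more were lower in coronary replicate 2, with a median log2 ratio of replicate 2 to replicate 1 of -1.07, and so were all 8 mural genes, with a median of -0.83. Among fibroblast genes Col1a1 stood at 38.3 and 24.3 CPM against 1010.0 and 449.9 CPM (4.54 ± 0.64) and Col3a1 at 539 and 451 CPM against 1829 and 824 CPM, the latter with an adjusted p of 0.0739 by edgeR without coronary replicate 1, but Col6a3 was endocardial at 772 and 968 CPM against 179.9 and 85.8 CPM (-2.71 ± 0.44). The part of these cells in the differences above was not tested.

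**Figure D4:**
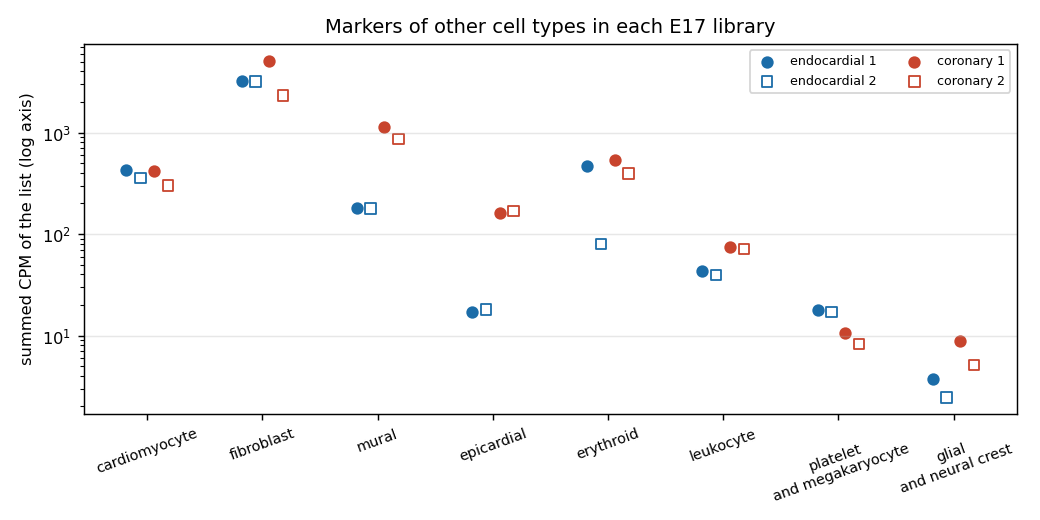
Summed CPM (log axis) of 8 marker lists of other cell types in each E17 library; blue, endocardial, and red, coronary, with circles for replicate 1 and squares for replicate 2. Mural and epicardial sums are higher in both coronary libraries, the fibroblast sum is highest in coronary replicate 1, and the erythroid sum is lowest in endocardial replicate 2.

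Of 17 cardiomyocyte markers 2 were lower, or 1 without coronary replicate 2 or endocardial replicate 1, and Tnnt2, of the sarcomere, was not called (66.4 and 56 CPM against 54.7 and 40.3 CPM). Erythroid markers summed to 473 and 79.9 CPM against 534 and 393 CPM, with 0 of 8 called by edgeR, 0 at an unadjusted p under 0.05 and 0 by DESeq2, and Hbb-bs, a beta globin, stood at 175 and 33.3 CPM against 196 and 159.9 CPM. Leukocyte markers summed to 43 and 39.4 CPM against 75 and 71.6 CPM, of which Mrc1, a receptor that some endothelia also carry, stood at 15.9 and 23.7 CPM against 69.3 and 67 CPM (1.79 ± 0.22). The macrophage gene Cd68 was endocardial at 11 and 9.98 CPM against 2.33 and 2.34 CPM (-2.16 ± 0.38), and Csf1r was called lower at 4.53 and 2.07 CPM against 0.892 and 0.359 CPM, with an adjusted p of 0.0792 by edgeR without coronary replicate 2 and 0.0851 without endocardial replicate 1. Platelet markers summed to 17.9 and 17 CPM against 10.6 and 8.21 CPM, and glial and neural crest markers to 3.77 and 2.46 CPM against 8.85 and 5.15 CPM, with 1 glial marker at 0 in all 4 libraries.

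The same difference at E13 was in part smaller and in part reversed. The E13 libraries come from 4 endocardial and 4 coronary sorts of embryos for which neither the Cre and Tomato alleles nor tamoxifen are named, and the endocardial gate there took cells with low GFP and high Emcn. Stage can therefore not be told apart from these differences. The change of the population difference between stages was called for 4962 of 15171 genes by edgeR (32.7%), 2465 upward at E17 (16.2%) and 2497 downward (16.5%). Of the 1587 genes at least 2-fold higher in the coronary libraries at E17, 1276 were called higher, 47 lower and 264 not called at E13, where 60.0% of all tested genes were called, 30.1% higher and 29.9% lower. Their median log2 fold change was 1.13 at E13 and 1.94 at E17. Of the 1737 genes at least 2-fold lower at E17, 1055 were called lower, 200 higher and 482 not called at E13, with medians of -0.71 and -1.94. The difference was called larger at E17 for 707 of the former and the other way for 74, and for 1128 and 12 of the latter. These genes were chosen for a difference at E17, which favours a larger one there.

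Both endocardial markers were further apart at E17. The log2 fold change of Npr3 was -2.91 ± 0.15 at E13 and -7.65 ± 0.26 at E17, a difference of -4.74 ± 0.27 (adjusted p 2.91e-07, edgeR), and that of Plvap -2.44 ± 0.11 and -6.4 ± 0.19, a difference of -3.97 ± 0.20 (1.38e-07). Cldn5 moved by 1.8 ± 0.34 (0.00162). Meox2, in contrast, stood at 5.88 ± 0.30 and 6.08 ± 0.33, with an adjusted p of 0.834 for the difference by edgeR. The list medians went from -0.54 to -3.08 for endocardial identity and from 1.74 to 5.17 for heart capillary identity. The median of other lists changed sign, with elastic fibre genes going from 1.11 to -0.72, the Wnt list from 1.14 to -0.13, and interferon and antigen presentation genes from -0.82 to 0.30. Fibroblast markers moved with stage too, with 10 of 12 higher and a median of 3.43 at E13 against 6 higher, 3 lower and a median of 0.82 at E17, and the median of glial markers went from 4.29 to 0.55. Their part in the changes of the lists was not tested. Arterial genes went from 3.24 to 1.8, and the mitosis list from 0.95 to 1.56. Axin2, a feedback target of Wnt signalling, stood at 2.38 ± 0.25 at E13 and -1.3 ± 0.41 at E17, a difference of -3.68 ± 0.48 (0.000107). Lpl, the lipase of capillary lumens, went from -1.19 ± 0.15 to 2.24 ± 0.20, a difference of 3.44 ± 0.25 (1.5e-06).

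**Figure D5:**
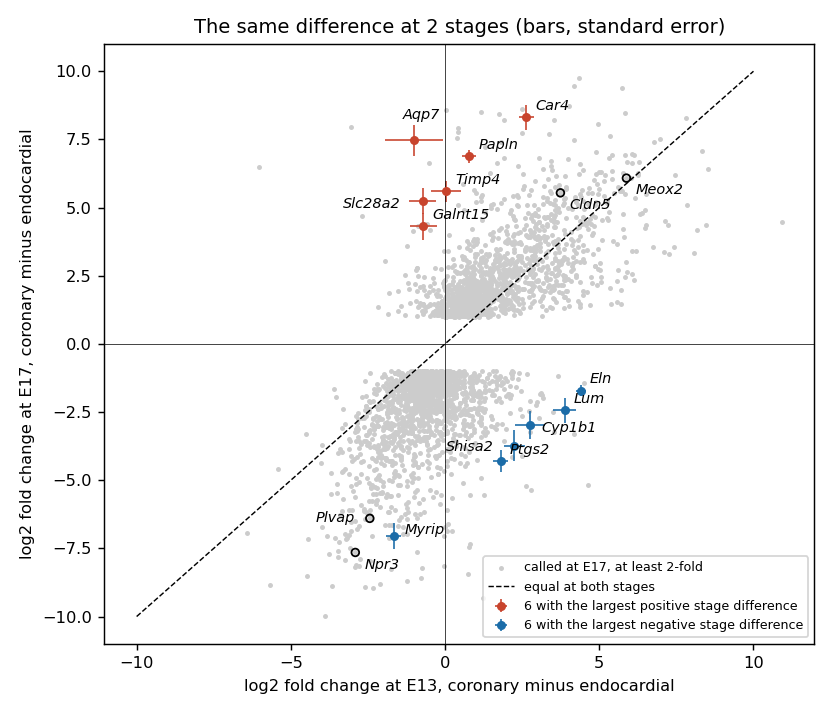
Log2 fold change, coronary minus endocardial, at E13 (x) and E17 (y); grey points are genes called at least 2-fold at E17, coloured points with standard errors are the 6 genes with the largest positive and the 6 with the largest negative change between stages, black circles are markers named in the text, and the dashed line marks equal differences. The coloured genes were taken only from genes called at least 2-fold at E17. Meox2 lies near the line, and Eln and Lum lie on opposite sides of 0 at the 2 stages.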

How the data were processed

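Polyadenylated RNA of sorted cells was sequenced as single reads from libraries made with NEBNext Ultra, a kit without strand marking, per the labels' protocols, so a gene and an overlapping antisense partner cannot be separated. The authors deposited expected counts per gene, of which 18.3% are not whole. RSEM 1.2.3, cutadapt 1.3, CASAVA 1.8.2 and build GRCm38 are named by the submitters' processing notes, while an aligner is not given in the sources used here. Because RSEM divides reads among near-identical genes by an estimate, values of such copies are uncertain.

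Expected counts were rounded, and filterByExpr (minimum count 10, total 15) kept 15171 of 41214 genes. edgeR 4.0.16 in R 4.3.3 fitted 4 group means over all 12 libraries with TMM scaling and the quasi-likelihood test, leaving 8 residual degrees of freedom (common BCV 0.126). The Benjamini-Hochberg adjustment ran over all genes tested, with a threshold of 0.05, and CPM uses TMM-scaled library sizes. Standard errors were derived from the fold change and its F statistic. Ratios of pooled counts carry exact 95% intervals that cover counting error only. Counts were also simulated with the sizes of all 12 libraries, and 14777 genes were tested. In the E17 coronary group 100 genes were changed 2-fold and 100 changed 4-fold, and batches were not simulated. Of these 68% and 93% were called in the right direction, and 4 unchanged genes were called. In the data 52.6% of genes were called and batches pair the libraries, so these rates do not measure the error of the real comparison.

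Each batch label holds 1 endocardial and 1 coronary library, and the labels thus pair them. Over 9481 genes the deviations of a pair from the group means correlated at 0.377, 0.682, 0.367 and 0.478 in the E13 batches and at 0.38 at E17. Alternatives were a replicate block by batch, only the 4 E17 libraries, DESeq2 1.42.0 size factors and its Wald test, no low-count filter, a filter of 1 CPM in 4 libraries, and leaving out each library.

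Symbols and coordinates are from GENCODE (release vM21, GRCm38, 40254 identifiers), and promoters from RefSeq (GRCm38.p6). Members, lists and markers were chosen with earlier results of these data known. Named genes are the 12 largest rises and falls, the markers and the 6 largest changes between stages each way. From each list up to 6 members by adjusted p and up to 3 abundant members that did not pass are named too. Rises, falls and stage changes came only from genes called at least 2-fold at E17, at 10 CPM or more in the higher group. These genes also had no overlap between the E17 groups and no symbol of a predicted model or clone. Other members, and the Hox, Irx, Meis and Pbx families, were chosen after their values were seen, to complete a statement. Some genes that the rule selects are not reported here.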

Additional observations from a re-analysis of the deposited data

Results flagged for a closer look

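The results here are 12 genes whose coronary minus endocardial difference changed between E13 and E17 by edgeR's test of that change. They had the largest changes among genes called at least 2-fold at E17, at 10 CPM or more and without overlap of the E17 groups. Genes without such a difference at E17 could not enter, whatever their change. All 12 values are differences of log2 fold changes, E17 minus E13. They concern groups that also differ in genotype, tamoxifen and the endocardial gate.

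Among the 6 downward changes were a pair of matrix genes. Lum, a small leucine-rich proteoglycan and a member of the fibroblast marker list, changed by -6.32 ± 0.62 (adjusted p 1.27e-05), from 3.88 ± 0.37 at E13 to -2.44 ± 0.47 at E17. Eln changed by -6.11 ± 0.28 (9.67e-08), from 4.41 ± 0.17 to -1.71 ± 0.21. Both are genes that were higher in the coronary libraries at E13 and in the endocardial libraries at E17. Ptgs2 changed by -6.1 ± 0.46 (2.08e-06), Shisa2, a regulator of Wnt and FGF receptors, by -5.98 ± 0.66 (3.31e-05) and Cyp1b1, an oxidase of steroids and retinoids, by -5.73 ± 0.71 (7.76e-05). Their E13 differences were 1.8 ± 0.25, 2.25 ± 0.33 and 2.76 ± 0.48. Myrip, a linker of secretory organelles to myosin, changed by -5.38 ± 0.56 (2.13e-05) and was lower in the coronary libraries at both stages, by -1.67 ± 0.23 at E13. The median log2 fold change of the 12 fibroblast markers was 3.43 at E13 and 0.82 at E17. All 11 fibroblast markers at 10 CPM or more were lower in coronary replicate 2 than in replicate 1 at E17. The part of fibroblast RNA in these changes was not tested.

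Of the 6 upward changes, 4 were in genes of the heart capillary list. That list was chosen with earlier results of these data known, so the overlap is not independent evidence. Aqp7 changed by 8.49 ± 1.26 (0.000296), from -1.02 ± 0.94 at E13 to 7.47 ± 0.57 at E17. Slc28a2 changed by 5.97 ± 0.63 (2.29e-05), from -0.73 ± 0.44, Car4 by 5.67 ± 0.60 (2.33e-05), from 2.64 ± 0.25, and Timp4 by 5.55 ± 0.67 (6.53e-05), from 0.04 ± 0.49. Car4 was thus higher in the coronary libraries at both stages. Papln changed by 6.1 ± 0.36 (3.79e-07), from 0.78 ± 0.23, and Galnt15, an enzyme of mucin-type glycosylation, by 5.01 ± 0.65 (0.000115), from -0.7 ± 0.44 to 4.31 ± 0.50.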

How the results depend on the processing

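The number of genes called at E17 was 7977, and it was 7957 with the replicate block, 7240 with only the 4 E17 libraries, 7975 with DESeq2 size factors, 7770 by DESeq2's Wald test, 7502 with no low-count filter and 7680 with a filter of 1 CPM in 4 libraries. Leaving out 1 E17 library gave 6502 to 7101 calls, of which 6303 to 6742 were among the 7977 with the same direction, and leaving out 1 E13 library 7799 to 8180. Of the counts over all genes, none moved by more than 1.5 times under these alternatives. Of 395 named genes 49 changed their side of the threshold under at least 1 alternative and 0 that were called under either setting changed direction. Of the 272 that passed, 9 lost their call, each on leaving out a library. The replicate block added 16 calls and lost 0, and those that concern named results stand beside them. With only the 4 E17 libraries 13 calls were added, with DESeq2 size factors 9 and by its Wald test 10, and not all of these are given beside their genes. The median over all genes was between -0.01 and 0.02 under these alternatives, apart from leaving out E13 libraries. With 2 libraries a group, an arm left with 1 library is assumed to vary like the other groups. Depth limits genes with few counts, whose ratios carry wide intervals.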
